A study of Homo sapiens with 10 samples.

Results

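Expression in 786-O cells carrying short hairpin 45 against ZHX2 was set against that in the same line carrying hairpin 44 against the same transcript, with 2 arrays per hairpin. These 4 arrays are part of a series of 10, and every one of the 22462 genes that the array's probe sets name singly was tested. 786-O is an established human renal carcinoma line that lacks functional VHL, the substrate-recognition part of a ubiquitin ligase. All cells were infected with lentivirus and kept in RPMI with puromycin at 2 ug/ml, and the 2 arrays of cells with a scrambled hairpin (Scr) give the level from which both hairpins depart and add to the estimate of spread. The labels give neither the hairpin sequences, nor the days in selection, nor whether the 2 arrays of a group came from separate infections or cultures, so the errors and p-values below measure only the spread between these arrays, which may be technical.

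ZHX2 encodes a nuclear protein with zinc fingers and homeodomains that acts on transcription, best known as a repressor of fetal genes in the liver. It has been described as a VHL target that accumulates in VHL-deficient kidney cancer, where it was tied to NF-kB activity. A short hairpin RNA is cut by Dicer to a guide strand that directs Argonaute to matching transcripts. Hairpins to 1 gene share the target and differ in the guide, and a comparison between them asks how far cell populations made to lose the same transcript resemble each other.

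Values are RMA signals on the log2 scale, so a difference of 1 is a 2-fold difference, and levels are compared only within a gene. Array medians over all probe sets lay between 6.15 and 6.22. The correlation over the 22462 named genes between the 2 arrays of a group was 0.993 for Scr, 0.995 for hairpin 44 and 0.9954 for hairpin 45. The tubule regulator PAX8 was read at 11.74 to 12.35 and the cytoskeletal gene VIM at 12.12 to 12.33 over the 6 arrays.

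The hairpins left different amounts of their target. ZHX2 was read at 10.58 and 10.43 on the Scr arrays, at 9.35 and 9.38 with hairpin 44 and at 8.93 and 9.02 with hairpin 45. The 3 groups did not overlap, and hairpin 45 had the lowest signal. Relative to Scr, ZHX2 fell by 1.14 with hairpin 44 (adjusted p = 0.00529) and by 1.53 with hairpin 45 (adjusted p = 0.000927). Between the hairpins the difference was -0.39 (SE 0.0862, 95% interval -0.60 to -0.18), a 1.31-fold lower signal with hairpin 45. Its p was 0.0042 before and 0.153 after adjustment over all genes. With moderation that follows signal intensity the adjusted p was 0.00515, so the call on ZHX2 itself depends on that choice.

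Between the hairpins, 89 of 22462 genes (0.396%) differed at an adjusted p under 0.05, of which 29 (0.129%) were higher and 60 (0.267%) lower with hairpin 45. At an unadjusted p under 0.05 there were 3387 (15.1%), 1872 higher (8.33%) and 1515 lower (6.74%). Each of the 89 differed by at least 1.5-fold, and 29 by at least 2-fold, 4 of them higher and 25 lower. The smallest difference called was 0.59. For all 89 the 2 arrays of one hairpin lay on one side of the 2 of the other, which was also so for 48.8% of all genes. Against Scr the same fit called 1718 genes (7.65%) for hairpin 44, 1079 higher (4.80%) and 639 lower (2.84%), and 4512 (20.1%) for hairpin 45, 2920 higher (13%) and 1592 lower (7.09%). After a further quantile normalization these splits were 949 higher and 908 lower for hairpin 44 and 2208 higher and 1951 lower for hairpin 45.

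The number of genes called between the hairpins rests on few degrees of freedom. With any 1 array left out, few or none of the 89 kept their call in limma. Their differences were then 0.845 to 1.155 times the reported ones. With an intensity trend in the moderation 1465 genes (6.52%) were called, 920 higher (4.10%) and 545 lower (2.43%). All 89 kept their direction in every one of these fits. Of the marker lists for other cells, limma called 0 of 12 endothelial, 0 of 9 fibroblast, 0 of 18 leukocyte and 0 of 12 neuronal or embryonic-kidney-line genes between the hairpins. Of these 51 genes 5 had an unadjusted p under 0.05, and 2, both from the neuronal list, were called with the intensity trend, 1 higher and 1 lower. Over all genes the shares were 15.1% and 6.52%.

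**Figure D1:**
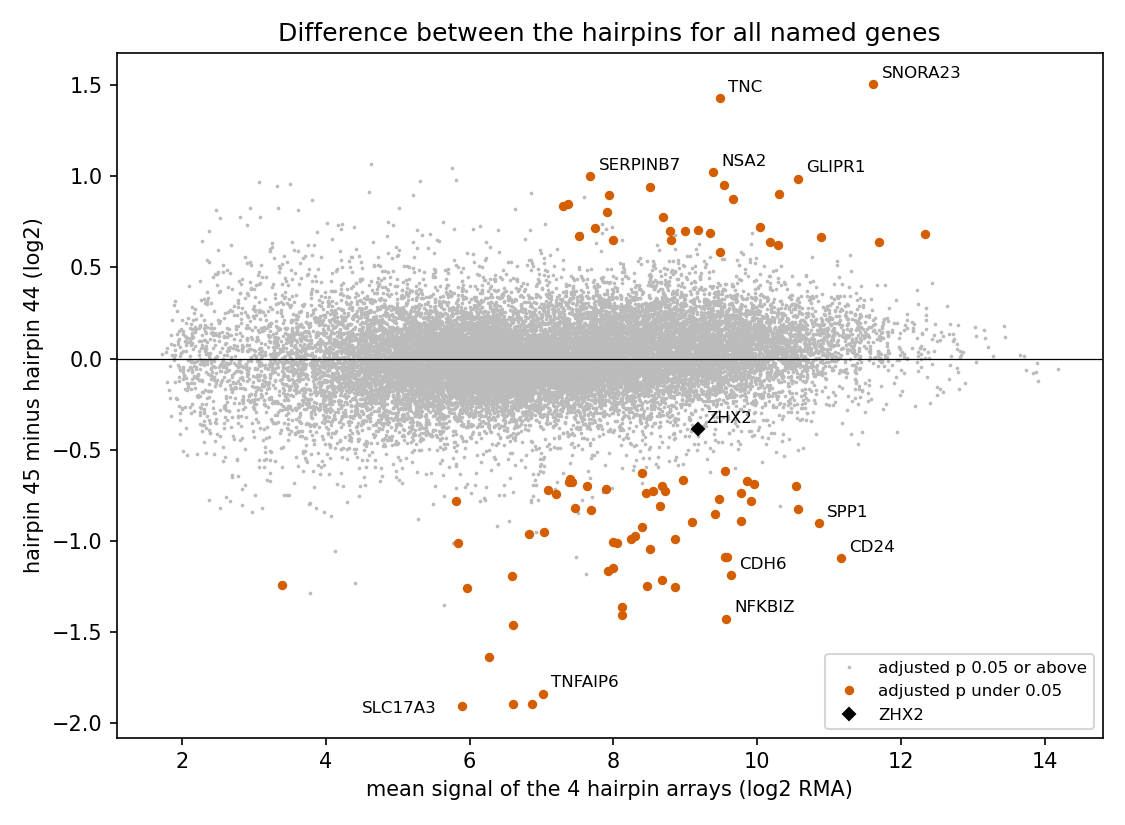
Difference between hairpin 45 and hairpin 44 (log2, vertical axis) against the mean log2 RMA signal of the 4 hairpin arrays (horizontal axis) for all 22462 genes. The 60 called genes below 0 reach -1.91, the 29 above 0 reach 1.51, and ZHX2 lies at -0.39.

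Genes of the renal tubule were among the largest differences between the hairpins. Of 24 measured genes of a proximal tubule and renal transport list, 4 were lower with hairpin 45 than with hairpin 44 and 0 higher. Over all genes 0.267% were called lower and 0.129% higher. The 4 were SLC17A3, CDH6, PDZK1 and KCNJ16. The list's median difference was -0.12 where that of all genes was 0.0024. SLC17A3, an organic anion and urate transporter of the proximal tubule, was read at 7.46 and 7.40 with Scr, 6.86 and 6.84 with hairpin 44, and 4.91 and 4.97 with hairpin 45. Hairpin 44 thus lay at -0.58 from Scr (adjusted p = 0.0138 in limma) and hairpin 45 far under both. The hairpins were 3.75-fold apart (-1.91, SE 0.073, adjusted p = 0.00204).

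PDZK1, a scaffold that holds transporters at the apical membrane, was read at 8.73 and 8.49 with Scr, 7.15 and 7.03 with hairpin 44, and 5.32 and 5.58 with hairpin 45. Its steps from Scr to hairpin 44 (-1.52) and from hairpin 44 to hairpin 45 (-1.64, SE 0.130, adjusted p = 0.0207) were of like size. KCNJ16, a basolateral potassium channel subunit of the tubule, stood at 10.94 and 10.88 with Scr, 8.75 and 8.90 with hairpin 44, and 7.28 and 7.56 with hairpin 45, which puts its larger step (-2.08) between Scr and hairpin 44. CDH6, the kidney cadherin used as a marker of this tumour type, went from 11.53 and 11.58 with Scr through 10.25 and 10.19 to 9.04 and 9.03 with hairpin 45, a 2.28-fold difference between the hairpins (-1.19, SE 0.0726, adjusted p = 0.00817).

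The other members of the list did not pass. KCNJ15, another potassium channel subunit, differed by -0.85 (SE 0.109, adjusted p = 0.0569). SLC4A4, the sodium bicarbonate cotransporter, differed by -0.47 (adjusted p = 0.0955). PAX8 was read at 12.18 and 12.13 with hairpin 44 and at 11.74 and 11.75 with hairpin 45, a difference of -0.40 (SE 0.071, adjusted p = 0.110), and PAX2, its relative, differed by -0.31 (adjusted p = 0.241). With the intensity trend 7 of the 24 were called, all lower with hairpin 45, beside 2.43% of all genes lower and 4.10% higher.

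Outside that list, TINAG and KMO had a profile like that of SLC17A3. TINAG, a basement membrane glycoprotein of renal tubules, was read at 8.0 and 8.09 with Scr, 7.54 and 7.56 with hairpin 44, and 5.66 and 5.65 with hairpin 45 (-1.90, SE 0.0742, adjusted p = 0.00204). KMO, the kynurenine hydroxylase of tryptophan breakdown, was read at 8.67 and 8.71, then 7.86 and 7.79, then 5.94 and 5.92 (-1.89, SE 0.0726, adjusted p = 0.00204). These 3 genes were the ones still called when only the 4 hairpin arrays were fitted, at an adjusted p of 0.023. ALDH1A1, which makes retinoic acid from retinal, was 2.32-fold lower with hairpin 45 (9.33 and 9.23 against 7.96 and 8.17). CYP1B1, a cytochrome P450 that oxidises oestradiol and polycyclic hydrocarbons, was 2.01-fold lower (8.55 and 8.57 against 7.51 and 7.59). ABCC3, an export pump for organic anions, was 1.59-fold lower (9.29 and 9.30 against 8.66 and 8.60). ABCC2, a related apical pump, differed by -0.62 without a call (adjusted p = 0.119).

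The inflammatory calls between the hairpins were few and all lower with hairpin 45. Of 26 measured genes of an inflammatory chemokine and cytokine list, 2 were lower and 0 higher, with a median of -0.03. The 2 were TNFAIP6 and VCAM1, which are themselves neither chemokines nor cytokines. Over all genes 0.267% were called lower and 0.129% higher. NFKBIZ was the 1 call, lower, among 22 NF-kB subunits and feedback regulators (median -0.03), and C3 was the 1 call, lower, among 21 complement and coagulation genes (median 0.01). TNFAIP6, a hyaluronan-binding protein induced by TNF, was read at 7.84 and 7.81 with Scr, 7.96 and 7.91 with hairpin 44, and 6.20 and 6.0 with hairpin 45. Hairpin 44 left it at the Scr level (0.11, adjusted p = 0.516), while hairpin 45 took it 3.58-fold under hairpin 44 (-1.84, SE 0.092, adjusted p = 0.00647).

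NFKBIZ, a nuclear IkB protein that helps NF-kB induce secondary targets, was read at 10.91 and 10.89 with Scr, 10.27 and 10.28 with hairpin 44, and 8.78 and 8.92 with hairpin 45, a 2.69-fold difference between the hairpins (-1.43, SE 0.0811, adjusted p = 0.00813). VCAM1, an adhesion molecule for leukocytes, was read at 9.61 and 9.51, then 8.56 and 8.57, then 7.53 and 7.31, so that both steps were near -1 (-1.0 and -1.15). C3, the central complement component, was read at 8.92 and 8.87, then 7.44 and 7.59, then 6.55 and 6.58, with the larger step (-1.38) between Scr and hairpin 44. PELI1, a ubiquitin ligase of Toll-like and interleukin-1 receptor signalling, was 1.78-fold lower with hairpin 45 than with hairpin 44 (8.06 and 8.15 against 7.25 and 7.29).

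CCL2 and CXCL8, chemokines that stood far below Scr, were not called between the hairpins, and their differences had opposite signs. CCL2 lay -2.07 from Scr with hairpin 44 and -2.44 with hairpin 45, and its difference between the hairpins was -0.36 (SE 0.133, adjusted p = 0.291). CXCL8 lay at -2.63 and -2.25, with a difference of 0.38 (SE 0.128, adjusted p = 0.264). CSF1, the macrophage growth factor, was read at 10.32 and 10.23 with hairpin 44 and at 9.81 and 9.88 with hairpin 45, a difference of -0.43 that missed the threshold (adjusted p = 0.110).

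Promoter sequence is shown for 3 of these genes and for CD274, described below, since they hold motifs of factors tied to inflammation (RefSeq, GRCh38.p14, the 250 bases before the annotated start, on the gene's strand). Promoters were at hand for 40 of the 60 genes lower with hairpin 45, 17 of the 29 higher and 15521 of all genes tested. Both strands were searched. Capitals mark the match, which is the AP-1 motif TGACTCA, read here as its reverse complement TGAGTCA, in SLC17A3 (chr6:25874244-25874493) and TNFAIP6 (chr2:151357342-151357591), the kappaB form in NFKBIZ (chr3:101827740-101827989) and 2 overlapping copies of the core of the interferon-stimulated response element in CD274 (chr9:5450292-5450541).
SLC17A3: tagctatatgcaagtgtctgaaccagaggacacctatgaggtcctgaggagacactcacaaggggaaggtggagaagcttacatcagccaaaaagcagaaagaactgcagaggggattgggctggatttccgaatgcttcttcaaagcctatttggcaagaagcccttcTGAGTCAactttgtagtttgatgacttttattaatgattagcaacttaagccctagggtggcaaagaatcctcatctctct
TNFAIP6: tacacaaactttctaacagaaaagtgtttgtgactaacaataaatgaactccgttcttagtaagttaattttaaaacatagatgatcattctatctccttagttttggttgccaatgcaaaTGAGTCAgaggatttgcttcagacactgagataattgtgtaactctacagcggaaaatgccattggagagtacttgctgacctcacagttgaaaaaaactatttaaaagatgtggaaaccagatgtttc
NFKBIZ: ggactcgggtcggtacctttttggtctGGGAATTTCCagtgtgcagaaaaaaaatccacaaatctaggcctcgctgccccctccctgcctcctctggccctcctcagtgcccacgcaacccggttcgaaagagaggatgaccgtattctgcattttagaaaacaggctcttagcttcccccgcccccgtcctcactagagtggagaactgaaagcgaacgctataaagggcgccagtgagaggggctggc
CD274: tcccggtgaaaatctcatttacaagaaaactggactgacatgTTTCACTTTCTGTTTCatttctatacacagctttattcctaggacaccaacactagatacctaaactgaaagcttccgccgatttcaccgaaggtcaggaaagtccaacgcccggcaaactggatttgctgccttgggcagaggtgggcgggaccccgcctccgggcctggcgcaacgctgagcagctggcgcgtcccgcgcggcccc

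The matches begin 81 bases before the start in SLC17A3, 129 in TNFAIP6, 223 in NFKBIZ, and 208 and 202 in CD274. TGACTCA was present in 4 of the 40 promoters of genes lower with hairpin 45 (10%), the other two being KCNJ16 and SGPP2, and in 0 of the 17 of genes higher, where 3.43% of all tested genes and 4.16% of all 27305 promoters of this length had it. The kappaB form was present in 3 of 40 (7.5%, NFKBIZ, SGPP2 and KY) and 2 of 17 (11.8%, ZMPSTE24 and SERPINB7), beside 1.82% of tested genes and 1.73% of all promoters. The interferon-stimulated core was present in 1 of 40 (VCAM1) and 1 of 17 (CD274), beside 2.68% and 3.07%. TTTGGCGC, an E2F form, was present in 0 of 40 and 2 of 17 (SLC39A9 and NSA2), beside 0.657% and 0.553%, and CCAAT, the NF-Y box, in 14 of 40 and 4 of 17, beside 34.1% and 33.0%. A match is a run of letters and no measure of binding.

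Genes of matrix, adhesion and its turnover moved in both directions. Of 39 measured matrix and adhesion genes 2 were higher with hairpin 45 (TNC and LOX) and 1 lower (CDH6), with a median of -0.02. Of 18 matrix metalloproteinases and inhibitors 1 was lower (MMP13) and 0 higher, with a median of -0.14. The shares of all genes called were 0.129% higher and 0.267% lower. MMP13, collagenase 3, was read at 9.10 and 8.88 with Scr, 6.55 and 6.65 with hairpin 44, and 5.22 and 5.46 with hairpin 45. Its main step was that from Scr to hairpin 44 (-2.39), and hairpin 45 lay a further 2.39-fold down (-1.26, SE 0.119, adjusted p = 0.0281). MMP7, matrilysin, was read at 6.23 and 6.34 with hairpin 44 and at 5.51 and 5.04 with hairpin 45, a difference of -1.01 whose wider spread kept it above the threshold (SE 0.166, adjusted p = 0.1).

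ITGB6, the integrin chain that with the alpha-v chain activates latent TGF-beta, was 2.29-fold lower with hairpin 45 than with hairpin 44 (7.19 and 7.20 against 5.92 and 6.08). SPP1, the secreted phosphoprotein osteopontin, was 1.87-fold lower (11.29 and 11.33 against 10.36 and 10.44). JAG1, a Notch ligand, was 1.77-fold lower (10.98 and 10.98 against 10.18 and 10.13). All 3 were also lower than Scr with hairpin 44, at -1.37, -0.77 and -1.15. CD24, a lipid-anchored surface glycoprotein, was 2.13-fold lower with hairpin 45 (11.66 and 11.77 against 10.55 and 10.69). SEMA6A, a transmembrane semaphorin, was 2.38-fold lower (9.46 and 9.50 against 8.18 and 8.28). ABCA12, a lipid transporter best known from the epidermis, was 2.76-fold lower (7.36 and 7.30 against 5.94 and 5.79), after a step of -1.58 between Scr and hairpin 44.

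A further 13 genes were below Scr with both hairpins and lower with hairpin 45 than with hairpin 44. They included ITPR1, a calcium channel of the endoplasmic reticulum (1.90-fold lower), PREX2, an activator of Rac (1.86-fold), PTPN13, a cytoplasmic tyrosine phosphatase (1.86-fold), SGPP2, a phosphatase of sphingosine 1-phosphate (1.67-fold), PCSK5, a proprotein convertase (1.60-fold), and DAPK1, a death-associated kinase (1.59-fold). HOXA2, a homeobox gene of the HOXA cluster, was read at 10.38 and 10.24 with Scr, 9.86 and 9.83 with hairpin 44, and 8.97 and 9.02 with hairpin 45. GPRC5B, GASK1B, CCDC198, CCDC183, CERNA2 and NCKAP5 were between 1.65-fold and 2.24-fold lower.

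HAS2, a hyaluronan synthase, differed the other way. It was read at 6.51 and 6.46 with Scr, 6.89 and 6.87 with hairpin 44, and 7.67 and 7.78 with hairpin 45, 1.79-fold higher with hairpin 45 than with hairpin 44 (0.84, SE 0.0779, adjusted p = 0.0269). COL4A2, a basement membrane collagen chain, was read at 8.67 on both hairpin 44 arrays and at 9.12 and 9.09 with hairpin 45, a difference of 0.44 without a call (adjusted p = 0.0968).

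TNC, PSMG2 and LOX were called against Scr in opposite directions by the hairpins. TNC, the matrix glycoprotein tenascin C, was read at 9.82 and 9.75 with Scr, 8.80 and 8.73 with hairpin 44, and 10.21 and 10.18 with hairpin 45. It fell by 1.02 with hairpin 44 (adjusted p = 0.00529) and was 0.41 above Scr with hairpin 45 (adjusted p = 0.0157), which left the hairpins 2.70-fold apart (1.43, SE 0.0752, adjusted p = 0.00688). LOX, which crosslinks collagen and responds to hypoxia-inducible factors, was read at 7.89 and 8.02, then 7.54 and 7.48, then 8.29 and 8.34, 1.75-fold apart (0.81, SE 0.0825, adjusted p = 0.0322). PSMG2, a chaperone of proteasome assembly, was read at 10.42 and 10.30, then 9.85 and 9.87, then 10.72 and 10.80, 1.87-fold apart (0.90, SE 0.0811, adjusted p = 0.0229). No gene lower with hairpin 45 was called in opposite directions against Scr.

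**Figure D2:**
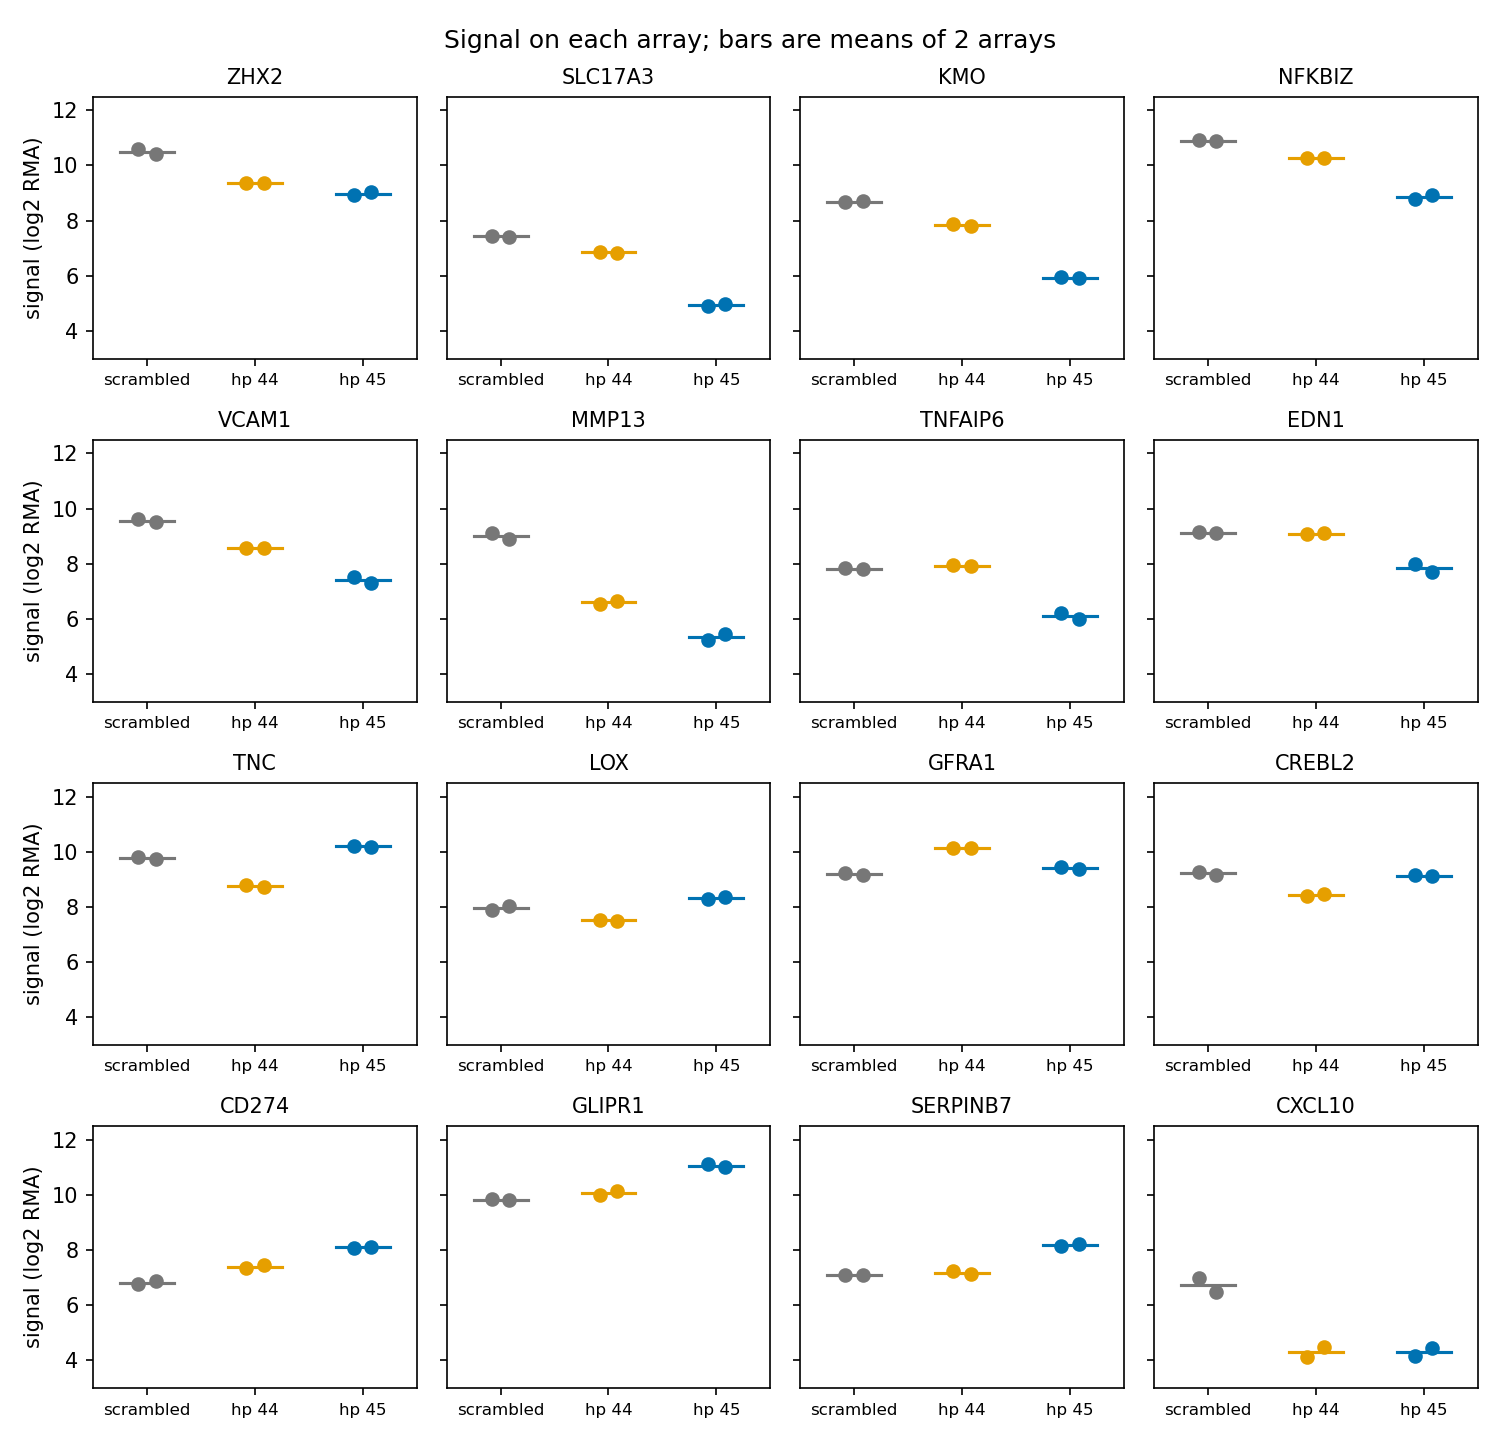
Log2 RMA signal (vertical axis) of 16 genes on each of the 6 arrays, with points for arrays and bars for the mean of 2, by group (scrambled, hairpin 44 as hp 44, hairpin 45 as hp 45). SLC17A3 and KMO are lower than Scr with hairpin 44 and lower by more with hairpin 45, TNC lies below Scr with hairpin 44 and above it with hairpin 45, and CXCL10 lies between 4.12 and 4.47 on all 4 hairpin arrays.

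Set against Scr, the 89 genes had different starting points. Of the 60 lower with hairpin 45, 46 (76.7%) had hairpin 44 between Scr and hairpin 45, where 49.7% of all genes lower with hairpin 45 had that order. In 10 (16.7%) Scr lay between the hairpins, beside 24.6%, and in 4 (6.67%) hairpin 45 lay between Scr and hairpin 44, beside 25.7%. Of the 29 higher with hairpin 45, 14 (48.3%) had hairpin 44 in the middle, beside 51.1% of all genes on that side, 14 had Scr in the middle, beside 19.9%, and 1 had hairpin 45 in the middle, beside 29.0%. By calls against Scr, 34 of the 60 were lower with both hairpins or higher with both, 21 were called with hairpin 45 alone and 5 with hairpin 44 alone. Over all genes on that side the shares were 5.69%, 9.46% and 0.667%. Of the 29 these numbers were 7, 12 and 7, with the 3 called in opposite directions, and the shares of all genes on that side were 8.19%, 16.7%, 0.686% and 0.0264%. The 3 contrasts share arrays, so this order is a description of the means and carries no test.

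**Figure D3:**
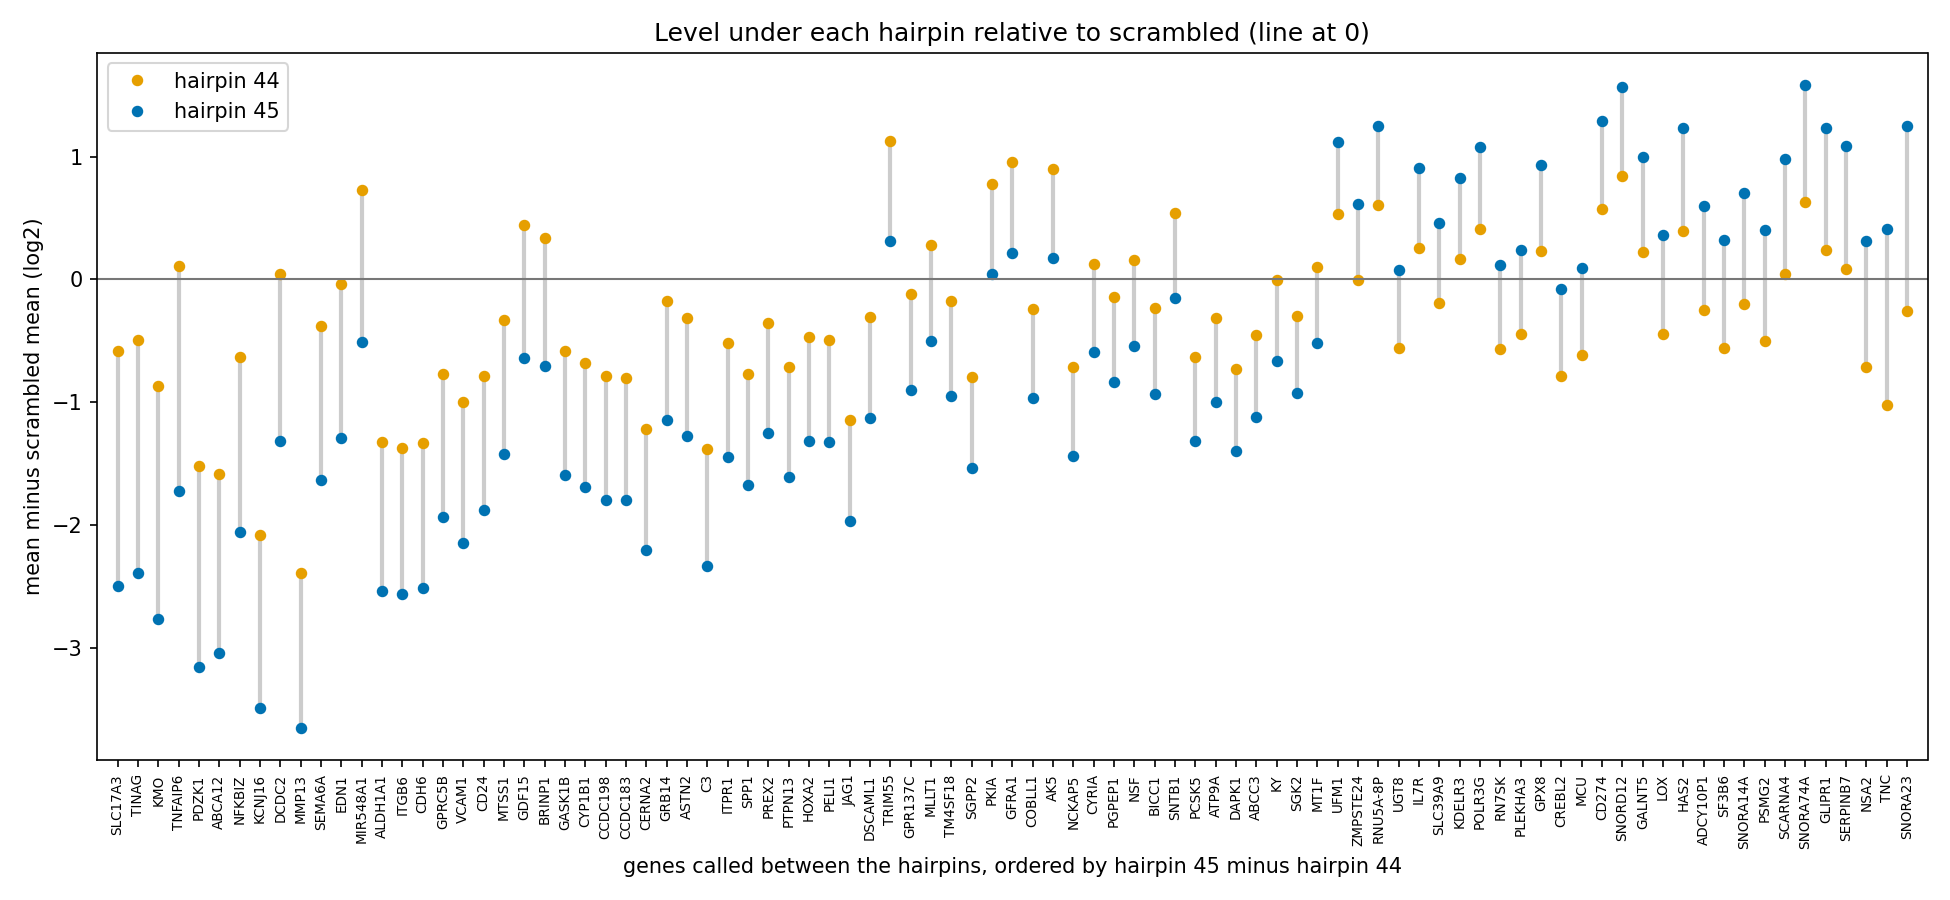
Mean of each hairpin minus the Scr mean (log2, vertical axis) for the 89 genes called between the hairpins, ordered along the horizontal axis by hairpin 45 minus hairpin 44. The grey line joins the hairpins of 1 gene, and 0 is the Scr level. On the left both hairpins lie mostly below 0 with hairpin 45 lower, and TRIM55, GFRA1, AK5 and PKIA stand out with hairpin 44 well above 0 and hairpin 45 near it.

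A set of 21 genes was lower than Scr with hairpin 45 and not called with hairpin 44. EDN1, the precursor of the vasoconstrictor endothelin-1, was read at 9.15 and 9.10 with Scr, 9.08 and 9.10 with hairpin 44, and 7.98 and 7.70 with hairpin 45. Scr and hairpin 44 overlapped and hairpin 45 lay below, 2.38-fold under hairpin 44 (-1.25, SE 0.108, adjusted p = 0.0208). DCDC2, a microtubule-binding protein of cilia, was read at 8.79 and 8.72, then 8.75 and 8.85, then 7.46 and 7.42, 2.57-fold lower (-1.36, SE 0.078, adjusted p = 0.00813). GRB14, an adaptor that binds the insulin receptor, was 1.96-fold lower (8.81 and 8.78 against 7.77 and 7.87). MTSS1, a membrane-bending regulator of actin, was 2.13-fold lower (10.14 and 10.10 against 9.02 and 9.04), and its -0.33 with hairpin 44 against Scr just missed the threshold (adjusted p = 0.0508).

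GDF15, a stress-induced cytokine that is a target of p53 and of ATF4, was read at 9.73 and 9.58 with Scr, 10.19 and 10.01 with hairpin 44, and 9.09 and 8.94 with hairpin 45. Scr thus lay between the hairpins, which were 2.12-fold apart (-1.09, SE 0.105, adjusted p = 0.0293). GDF15 was the 1 call among 24 measured p53 targets (median -0.09) and the 1 call among 35 genes of ATF4 and amino acid stress (median 0.03). The share of all genes called was 0.396%. The p53 targets had 9 positive and 15 negative differences, and no other of them was called. CDKN1A, the cell-cycle inhibitor p21, was read at 8.21 and 8.20 with hairpin 44 and at 7.71 and 7.67 with hairpin 45 (-0.52, SE 0.0778, adjusted p = 0.0834). TP53INP1 differed by -0.71 (SE 0.117, adjusted p = 0.1). With the intensity trend 7 of the 24 were lower and 1 higher, beside 2.43% and 4.10% of all genes.

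In further genes only hairpin 45 was called against Scr. These were BICC1, an RNA-binding protein whose loss gives cystic kidneys, NSF, an ATPase of vesicle fusion, SGK2, an SGK-family kinase, and the metallothionein MT1F. They were 1.62-fold, 1.62-fold, 1.54-fold and 1.53-fold lower with hairpin 45 than with hairpin 44. MT1F has near-identical relatives, and a probe set for it can take up their signal. The others of these 21 were BRINP1, ASTN2, DSCAML1, GPR137C, MLLT1, TM4SF18, COBLL1, CYRIA, PGPEP1, ATP9A and KY, all between 1.58-fold and 2.07-fold lower.

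In a smaller set hairpin 44 was the one away from Scr. TRIM55, a muscle-type ubiquitin ligase, was read at 7.97 and 7.89 with Scr, 9.04 and 9.06 with hairpin 44, and 8.28 and 8.21 with hairpin 45. It was higher than Scr with both hairpins (1.12 and 0.31, adjusted p = 0.00515 and 0.0356), and 1.75-fold lower with hairpin 45 than with hairpin 44. GFRA1, the GDNF co-receptor, was read at 9.23 and 9.15, then 10.15 and 10.14, then 9.43 and 9.39, 1.67-fold lower with hairpin 45 (-0.74, SE 0.0743, adjusted p = 0.0322). PKIA, an inhibitor of protein kinase A, had Scr at 8.14 and 7.95, hairpin 44 at 8.82 and 8.84 and hairpin 45 at 8.07 and 8.11, so that hairpin 45 lay within the Scr arrays. AK5, an adenylate kinase, and SNTB1, a syntrophin of the dystrophin complex, were 1.65-fold and 1.61-fold lower with hairpin 45 and differed from Scr by 0.17 and -0.15 there without a call.

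Other genes were lower than Scr with hairpin 44 and not called with hairpin 45. In CREBL2 hairpin 45 lay between Scr and hairpin 44, and in the 5 that follow it Scr lay between the hairpins. CREBL2, a small bZIP protein, was read at 9.28 and 9.16 with Scr, 8.40 and 8.47 with hairpin 44, and 9.15 and 9.12 with hairpin 45 (0.70, SE 0.0801, adjusted p = 0.0397). MCU, the pore of the mitochondrial calcium uniporter, was read at 9.45 and 9.44, then 8.77 and 8.89, then 9.48 and 9.59 (0.71, SE 0.083, adjusted p = 0.0433). NSA2, a factor of large ribosomal subunit assembly, was read at 9.6 and 9.56, then 9.01 and 8.73, then 9.86 and 9.92, 2.03-fold apart. SF3B6, a U2 snRNP protein of the spliceosome, was read at 9.87 and 9.71, then 9.19 and 9.26, then 10.10 and 10.11, 1.84-fold apart. PLEKHA3, a lipid-binding protein of the Golgi, and UGT8, which makes galactosylceramide, were 1.61-fold and 1.56-fold higher with hairpin 45 than with hairpin 44.

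Among genes higher with hairpin 45, SERPINB7 and GLIPR1 left the Scr level with that hairpin. SERPINB7, a serine protease inhibitor of the ovalbumin clade, was read at 7.08 and 7.10 with Scr, 7.23 and 7.13 with hairpin 44, and 8.13 and 8.22 with hairpin 45 (1.00, SE 0.0799, adjusted p = 0.0207). GLIPR1, a secretory-pathway protein of the CAP family, was read at 9.84 and 9.82, then 9.99 and 10.15, then 11.10 and 11.02 (0.99, SE 0.0865, adjusted p = 0.0208). For both, hairpin 44 was not called against Scr. The same pattern was seen for GALNT5, a glycosyltransferase that starts mucin-type chains (1.71-fold higher), GPX8, a peroxidase of the endoplasmic reticulum (1.62-fold), KDELR3, a receptor that retrieves proteins of that compartment (1.59-fold), IL7R, the interleukin-7 receptor chain (1.57-fold), SLC39A9, a zinc transporter (1.57-fold), and ZMPSTE24, the protease that matures prelamin A (1.54-fold). The pseudogene ADCY10P1 was 1.80-fold higher with hairpin 45, again with no call for hairpin 44.

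CD274, which encodes the T-cell checkpoint ligand PD-L1, was read at 6.75 and 6.86 with Scr, 7.33 and 7.44 with hairpin 44, and 8.08 and 8.12 with hairpin 45. These groups stood in that order without overlap, with steps of 0.57 (adjusted p = 0.0196) and 0.71 (SE 0.0841, adjusted p = 0.0433). UFM1, a ubiquitin-like modifier, and POLR3G, a subunit of RNA polymerase III, were 1.5-fold and 1.59-fold higher with hairpin 45 than with hairpin 44 and higher than Scr with both.

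Antigen presentation genes, set beside CD274, had no call among 18 measured and a median of -0.10. ERAP1, which trims peptides for class I molecules, was read at 8.18 and 8.26 with hairpin 44 and at 7.61 and 7.37 with hairpin 45, a difference of -0.73 without a call (SE 0.129, adjusted p = 0.110). TAPBPL, a peptide editor of class I molecules, differed by -0.44 (SE 0.0798, adjusted p = 0.115). At an unadjusted p under 0.05 in limma 5 of the 18 were lower and 0 higher, and with the intensity trend 3 were lower and 0 higher, beside 6.74% and 2.43% of all genes lower at those thresholds.

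Small nucleolar and Cajal body RNAs stood out by class, a reading made after their values were seen. Of 242 small nucleolar and Cajal body RNAs 5 were called (2.07%), all higher with hairpin 45, and the median difference of the class was 0.14. Of 17085 protein-coding genes 79 were called (0.462%), 21 higher and 58 lower, with a median of 0.0094. SNORA23, a guide of pseudouridine formation in ribosomal RNA, was read at 11.22 and 11.02 with Scr, 10.85 and 10.87 with hairpin 44, and 12.32 and 12.41 with hairpin 45, a larger rise than any other called gene had (1.51, SE 0.0933, adjusted p = 0.00817). SNORA74A was 1.93-fold, SCARNA4 1.92-fold, SNORA14A 1.86-fold and SNORD12 1.65-fold higher with hairpin 45. RN7SK, the RNA that holds the elongation kinase P-TEFb inactive, was read at 12.54 and 12.56, then 11.97 and 12, then 12.66 and 12.68, so that hairpin 44 was the one below Scr. The U5-like RNU5A-8P was 1.56-fold higher with hairpin 45. RN7SK and RNU5A-8P were counted among 1886 genes of other classes, of which 3 were called (0.159%), beside 0.396% of all genes. Small RNAs of these kinds have near copies in the genome and many sit inside host genes. A probe set thus names them with less certainty than a coding gene. MIR548A1, the 1 microRNA gene called, lay near the bottom of the scale (2.66 to 4.05 on the 6 arrays), and its 2 probe sets hold identical values.

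Some of the genes farthest from Scr had near-equal means with both hairpins. CXCL10, an interferon-induced chemokine, was read at 6.97 and 6.49 with Scr, 4.12 and 4.47 with hairpin 44, and 4.14 and 4.46 with hairpin 45, a difference of 0.01 (95% interval -0.50 to 0.52). CFI, complement factor I, differed by -0.09 (interval -0.51 to 0.33) at -2.27 and -2.36 from Scr. FLG, filaggrin, was 1.85 above Scr with hairpin 44 and 1.87 above it with hairpin 45. STC2, the secreted glycoprotein stanniocalcin 2, was 1.66 and 1.68 above it, with an interval of -0.19 to 0.22 for the difference. After quantile normalization the small differences of FLG and STC2 changed sign. ANKRD1, a target of YAP, was 1.86 and 1.77 above Scr, with an interval of -0.31 to 0.13 for the difference. LRCH2 lay at -1.49 and -1.40, with an interval of -0.31 to 0.50. These genes were chosen for a difference of at most 0.1, so their nearness is a description, and the intervals for CXCL10, CFI and LRCH2 are wide. With both hairpins CXCL10 also lay below the array medians of 6.15 to 6.18, and no detection measure was used.

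Interferon-stimulated genes as a list lay at like distances below Scr with each hairpin. Of 47 measured, limma called 0 between the hairpins, with 4 higher and 6 lower at an unadjusted p under 0.05 and 1 higher and 4 lower with the intensity trend. Over all genes 8.33% were higher and 6.74% lower at the unadjusted threshold, and 4.10% and 2.43% with the trend. The median difference was -0.01. Their median against Scr was -0.44 with hairpin 44, where 21 were called lower and 0 higher. With hairpin 45 the median was -0.46, and 30 were called lower and 0 higher. Of all genes, 2.84% were called lower than Scr with hairpin 44 and 7.09% with hairpin 45. Called higher than Scr were 1079 of 22462 genes with hairpin 44 and 2920 with hairpin 45. IFI6, a mitochondrial interferon-induced protein, was read at 10.73 and 10.61 with Scr, 9.68 and 9.75 with hairpin 44, and 10.19 and 10.35 with hairpin 45 (0.55, SE 0.0927, adjusted p = 0.102). SAMD9L, an antiviral factor, had the other order, with 9.58 and 9.57, then 8.68 and 8.82, then 8.29 and 8.24 (-0.48, SE 0.0823, adjusted p = 0.105).

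The 4 highest medians between the hairpins were in lists of growth and metabolism with no call. They were 0.18 over 31 genes of oxidative phosphorylation, 0.14 over 23 endoplasmic reticulum chaperone and unfolded protein response genes, 0.13 over 38 genes of G2/M and mitosis and 0.13 over 33 of ribosome biogenesis, beside 0.0024 over all genes. At an unadjusted p under 0.05 in limma, 12, 8, 10 and 9 of them were higher with hairpin 45 and 0, 1, 0 and 1 lower, where 8.33% of all genes were higher and 6.74% lower at that threshold. With the intensity trend 6, 8, 8 and 5 were higher with hairpin 45, and 0, 0, 0 and 1 lower, where 4.10% of all genes were higher and 2.43% lower. Positive medians were also found over 21 genes of glycolysis and lactate (0.11), 39 of G1/S and DNA replication (0.11) and 23 cytosolic ribosomal protein genes (0.10). Other lists of growth and metabolism had negative medians. These were -0.03 over 25 genes of cholesterol synthesis and uptake, -0.04 over 16 of fatty acid synthesis and desaturation and -0.03 over 13 of the EGF receptor family. XBP1, which switches on genes of the unfolded protein response, was read at 9.63 and 9.70 with Scr, 9.96 and 9.98 with hairpin 44, and 10.35 and 10.43 with hairpin 45 (0.41, SE 0.0757, adjusted p = 0.115). HERPUD1, which works in degradation from the endoplasmic reticulum, differed by 0.46 (adjusted p = 0.119). With hairpin 44 NDUFB6, a subunit of respiratory complex I, was read at 6.89 and 6.81, against 7.23 and 7.34 with hairpin 45 (0.43, SE 0.082, adjusted p = 0.119).

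Among 22 YAP/TEAD targets, whose median was 0.05, limma called 0, with 5 higher and 1 lower both at an unadjusted p under 0.05 and with the intensity trend. The shares of all genes were 8.33% higher and 6.74% lower without adjustment, and 4.10% and 2.43% with the trend. CCN2, a matricellular growth factor, was read at 7.59 and 7.57 with Scr, 8.49 and 8.48 with hairpin 44, and 8.95 and 8.94 with hairpin 45, a difference of 0.46 between the hairpins (SE 0.0695, adjusted p = 0.0834). FJX1 differed by 0.51 (adjusted p = 0.0657). A second, dimmer probe set of CCN2 differed by -0.06 between the hairpins. Of 27 genes responsive to hypoxia-inducible factors outside glycolysis LOX was the 1 call, higher (median 0.09). EPAS1, the HIF-2 alpha subunit, differed by 0.12 between the hairpins (95% interval -0.06 to 0.30). Of 25 NRF2 antioxidant genes ABCC3 was the 1 call, lower (median 0.05). Among all genes 0.129% were called higher and 0.267% lower. ME1, the cytosolic malic enzyme, differed by 0.43 without a call (adjusted p = 0.120).

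In 20 of the 30 lists no member was called between the hairpins, and the medians of these lists ran from -0.10 to 0.18. Of their 471 measured members, 107 (22.7%) had an unadjusted p under 0.05 in limma and 68 (14.4%) were called with the intensity trend, beside 15.1% and 6.52% of all genes. In the list of the EGF receptor family, EGFR was read at 11.01 and 11.06 with hairpin 44 and at 10.59 and 10.65 with hairpin 45 (-0.42, SE 0.079, adjusted p = 0.119). Its ligand EREG differed by -0.47 (SE 0.0784, adjusted p = 0.101). In the cholesterol list ABCA1, the cholesterol exporter, was read at 10.86 and 10.89 with hairpin 44 and at 10.37 and 10.40 with hairpin 45 (-0.49, SE 0.073, adjusted p = 0.0834). BCL2, the apoptosis inhibitor, differed by -0.63 (SE 0.135, adjusted p = 0.145). ETV1, an ETS factor downstream of RAS, was read at 6.49 and 6.31 with Scr, 7.22 and 7.24 with hairpin 44, and 6.40 and 6.67 with hairpin 45 (-0.70, SE 0.119, adjusted p = 0.105).

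**Figure D4:**
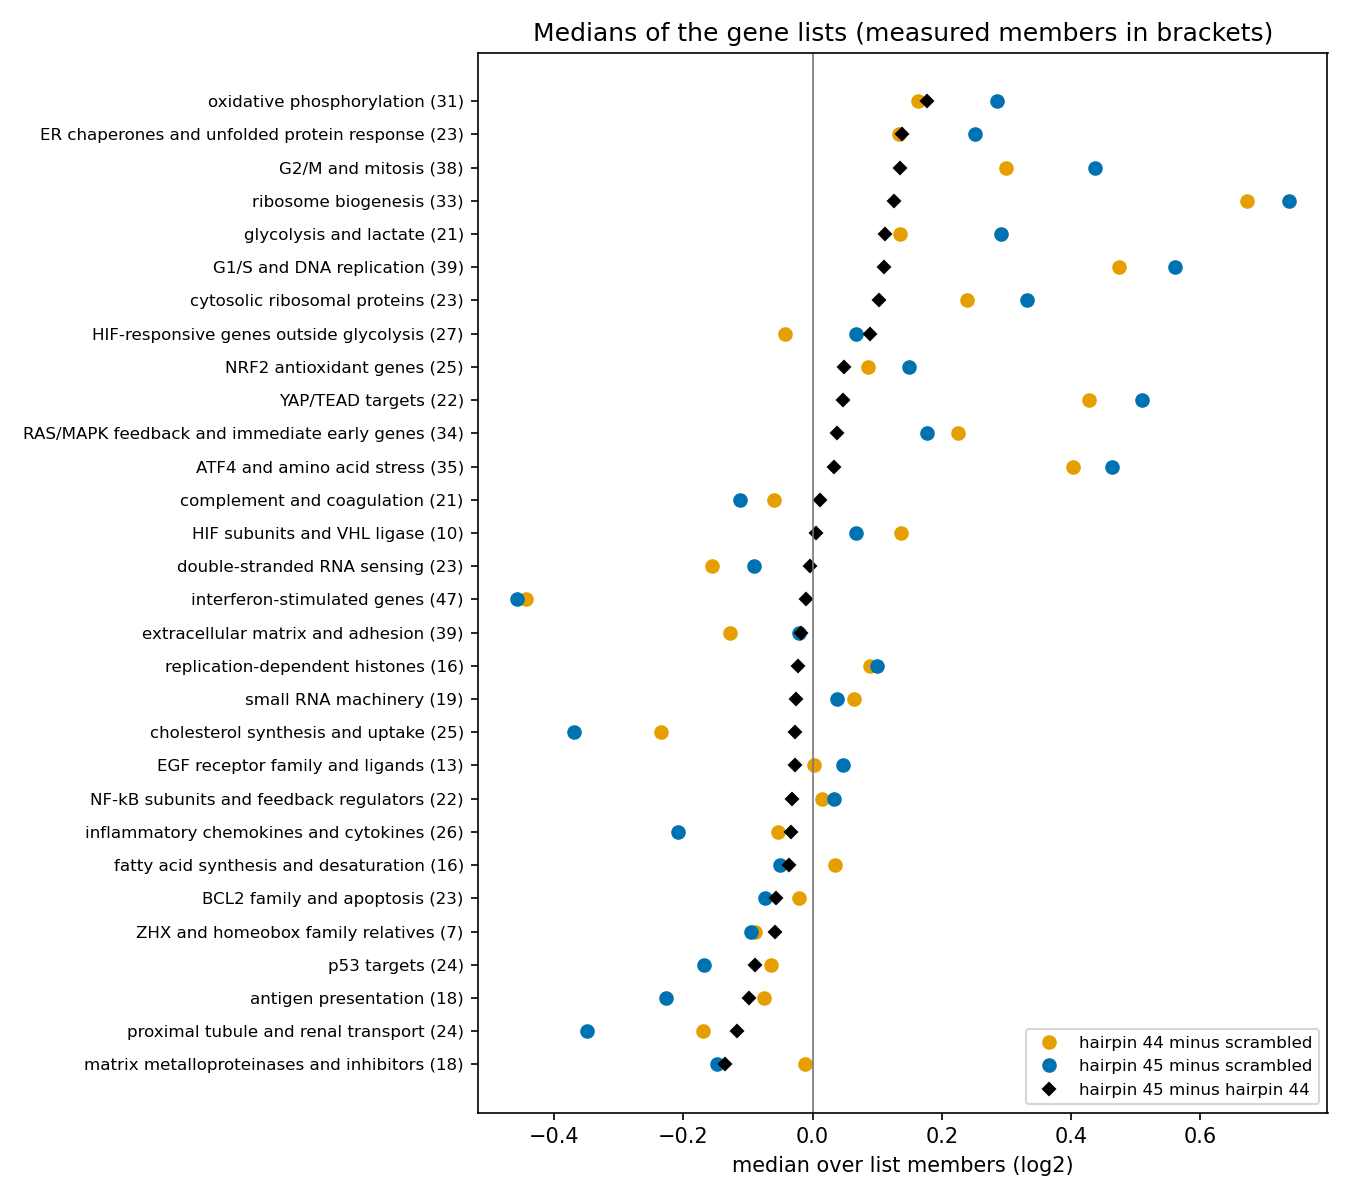
Median log2 difference (horizontal axis) over the measured members of each of 30 gene lists, for each hairpin against Scr (circles) and for hairpin 45 against hairpin 44 (diamonds). The diamonds run from -0.14 for matrix metalloproteinases to 0.18 for oxidative phosphorylation, and the interferon-stimulated genes lie at -0.44 and -0.46 from Scr with a diamond at -0.01.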

How the data were processed

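Total RNA of 786-O cells was hybridised to Affymetrix arrays. The authors deposited log2 signals made with RMA, per the submitters' processing notes and the range of the values, for 53617 probe sets. Which software ran RMA, and on which build or probe annotation, is not given in the sources used here. Groups came from the sample titles. Only the table with Scr, hairpin 44 and hairpin 45 was used, and the 4 columns of the p65 table were not.

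Probe sets were named from the platform annotations, with symbols updated through RefSeq (GRCh38.p14), and 24471 carried 1 gene, 27196 none, 1842 several and 108 different genes. For the 1071 of 22462 genes with more than 1 probe set, that with the highest mean was used. No depth exists for arrays; their number limits precision.

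In R 4.3.3, limma 3.58.1 fitted the 3 group means on 6 arrays (3 residual and 2.93 prior degrees of freedom), with Benjamini-Hochberg adjustment over all genes, two-sided, and calls at an adjusted p under 0.05. The fit was tested on simulated data. Same-numbered arrays did not deviate together (correlations of -0.026 to 0.054), so replicate numbers were not taken as pairs. Comparisons with Scr share arrays and are given side by side.

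The comparison, the lists and the rules were chosen with earlier results of these data known. Named were ZHX2, the 14 largest rises and falls among called coding genes, the 3 list members of smallest p, genes called in opposite directions against Scr, up to 4 per order of the means, and 6 genes far from Scr that differed by at most 0.1. Other called genes, small RNAs, and the further list members CCL2, CXCL8, SLC4A4, KCNJ15, PAX8, PAX2, NDUFB6 and COL4A2 were named after their values were seen, where the rule did not take them. Alternatives were an intensity trend, robust moderation, 2 scalings, a filter on dim probe sets, the mean of probe sets, every probe set, a replicate block, array weights, a 1.5-fold minimum, 2 groups alone and each array left out.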

Additional observations from a re-analysis of the deposited data

Results flagged for a closer look

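TNC, PSMG2 and LOX were each called against Scr in opposite directions by the hairpins, and the difference between the hairpins was itself tested. It was 1.43 for TNC, 0.90 for PSMG2 and 0.81 for LOX on the log2 scale, with hairpin 45 higher on both of its arrays. In each of the 3, both hairpin 45 arrays lay above and both hairpin 44 arrays below the Scr arrays. No group has the 4 arrays that a test for outlying arrays needs.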

How the results depend on the processing

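The 89 genes called between the hairpins kept their direction under every alternative that gave them a value (MIR548A1 had none under the filter on dim probe sets), with sizes of 0.845 to 1.155 times the reported ones, but few kept their call where degrees of freedom were fewer. The 89 calls became 1465 with the intensity trend (920 higher and 545 lower), 400 with the filter on dim probe sets, 207 with array weights, 8 over every probe set and 3 when only the 2 groups were fitted. They numbered 83, 82, 89 and 89 under robust moderation, median centring, quantile normalization and the mean of probe sets. Leaving out 1 array gave 0 to 4 calls in limma (2028 to 2442 genes at an unadjusted p under 0.05 where there were 0), and an arm left with 1 array was taken to vary like the other groups. With the replicate block, which the pairing check does not back, 9 genes were called (ABCA12, DCDC2, KMO, NFKBIZ, SEMA6A, SLC17A3, TINAG, TNC and TNFAIP6).

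The 1718 calls of hairpin 44 against Scr became 3943 with the trend, 3064 with the dim filter, 816 with the replicate block, 576 with 2 groups, 521 over every probe set, 687 with a 1.5-fold minimum, and 3 to 595 with an array left out, the lowest without a hairpin 44 array. The 4512 of hairpin 45 against Scr became 1627 with the 1.5-fold minimum and 1132 to 3967 with an array left out. ZHX2 stayed at -0.39 with the trend, where it passed the threshold. List members called between the hairpins went from 13 to 131 with the trend (79 higher and 52 lower). The share of all genes called went from 0.396% to 6.52% with it. Under robust moderation and both scalings 13 or 14 list members were called. The number of called genes with hairpin 44 between Scr and hairpin 45, which was 60, stayed within 58 to 61, the leave-one-out fits having been added after the data were seen.

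Small differences changed sign. FLG was -0.038 and STC2 -0.0336 after quantile normalization. With an array left out, CXCL10 ran from -0.17 to 0.18, CFI from -0.22 to 0.0453, FLG from -0.0363 to 0.0703, STC2 from -0.0259 to 0.0515 and LRCH2 from -0.0095 to 0.19. The cause of these shifts was not tested. Groups of 2 arrays limit the precision, and no detection measure was used for dim probe sets.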
